A study of Mus musculus with 2 samples.

Results

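The subunits of the transcription factor NF-kB and the ankyrin-repeat proteins that bind them were followed at the RNA level in M210B4, a mouse cell line from bone marrow stroma. The members were 10 genes chosen by symbol, with earlier results of these data known: the subunit genes Nfkb1, Nfkb2, Rel, Rela and Relb, and the inhibitor genes Nfkbia, Nfkbib, Nfkbie, Nfkbid and Nfkbiz. Each gene was read from its brightest probe set among those annotated with exactly 1 gene symbol. Values were obtained in this way for 9 of the 10 members, out of 22180 genes in all, and Nfkb1 was not analysed here. All 9 had 1 such probe set.

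The study has 2 Affymetrix Mouse Gene 2.0 ST arrays. The treated culture received an antibody that activates CD84 (clone 152-1D5), a surface receptor of the SLAM family, and the control culture an IgG1 isotype antibody. Both cultures were exposed for 24 h in RPMI medium with 2% serum. With 1 array per group there is no replicate, standard error or p-value, and every comparison below is a difference between these 2 arrays, whose number limits the precision. Single-line cultures do not show whether other stromal cells would give the same values.

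NF-kB proteins pair through a shared Rel homology region and bind short DNA elements called kappaB sites. In resting cells the inhibitors Nfkbia, Nfkbib and Nfkbie keep these dimers out of the nucleus, and a kinase complex marks the inhibitors for degradation when a receptor is engaged. A slower, non-canonical route processes the Nfkb2 product so that it can act with Relb. Nfkbid and Nfkbiz encode nuclear ankyrin proteins that tune which target genes the dimers switch on. Several of these genes are themselves NF-kB targets, which gives the pathway feedback at the transcript level. RNA values do not measure inhibitor degradation or nuclear entry.

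The deposited values are on a log2 scale. A gene counted as detected when it lay above 4.84 on at least 1 array, which is the 95th percentile of 1394 olfactory and vomeronasal receptor genes. There were 13284 detected genes, all 9 measured members among them. Their differences (anti-CD84 minus IgG1, as in all differences below) had a median of 0.09 and a standard deviation of 0.44 on the log2 scale. Cd84 was not detected on either array (4.15 after anti-CD84 and 3.82 after IgG1). Markers fixed for marrow stroma were detected in 11 of 14 cases, with Col1a1, a chain of type I collagen, at 12.52 and 12.53. The stromal markers Lepr, Nt5e and Eng were not detected. Of the 11, Pdgfra (1.89-fold) and Cxcl12 (2.15-fold) were 1.5-fold higher and 0 were 1.5-fold lower, with Sparc 1.38-fold lower. Of 15 haematopoietic markers 6 were detected, the highest at 6.21, and the pan-leukocyte gene Ptprc was not detected on either array (3.90 and 3.86). Of 5 endothelial markers 3 were detected, the highest at 5.56. Cdh5 (4.61 after anti-CD84 against 5.56) was at least 1.65-fold and Pecam1 at least 1.11-fold lower, and the haematopoietic marker Csf1r was at least 1.01-fold higher. The part of these marker differences in the members' values was not tested.

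Of the 9 measured members, Nfkbie was at least 1.5-fold higher after anti-CD84, Nfkbid was at least 1.5-fold lower, and the other 7 lay within 1.5-fold. Among all detected genes, 10.7% were 1.5-fold higher and 6.4% 1.5-fold lower. A count of 1 in each direction among 9 genes (11.1% each) lies near that background. In a bulk culture, a change in the cells' make-up and a change in RNA per cell cannot be told apart. The median difference of the members was -0.01, beside 0.09 for all detected genes. When differences were centred on that median of 0.09, Nfkbib also passed 1.5-fold downward, and the members then counted 1 higher and 2 lower. The centred background was 7.71% higher and 8.49% lower. At 1.4-fold, a threshold added after the values were seen, 2 members were higher and 2 lower, beside 15.5% and 8.9% of all detected genes. With values floored at the detection level the count stayed at 1 in each direction, beside 9.15% and 4.13%.

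**Figure D1:**
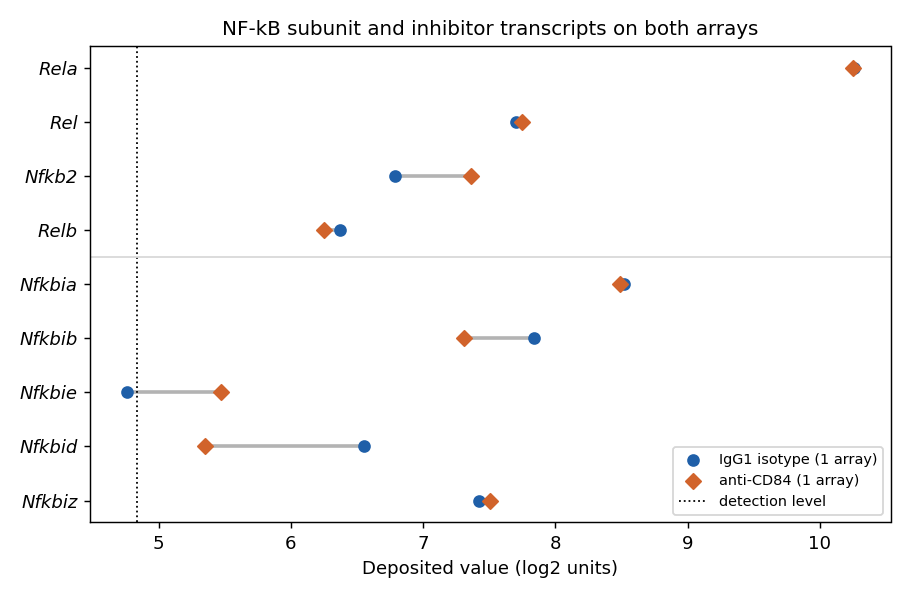
Log2 value of each measured member (vertical axis) on the IgG1 array (circles) and the anti-CD84 array (diamonds), with the detection level of 4.84 as a dotted line; subunits are above the grey line, inhibitors and nuclear ankyrin proteins below it. Nfkbid, Nfkbie, Nfkb2 and Nfkbib have visibly separate symbols, and the other 5 members differ by at most 0.12.

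The canonical subunits had nearly the same values on both arrays. Rela, the main activating subunit of the canonical route, was at 10.25 after anti-CD84 and 10.26 after IgG1 (probe set 17356490), a difference of -0.01. Rel, the activating subunit best known from lymphocytes, was at 7.75 and 7.70 (probe set 17261107), a difference of 0.05. The sign of the Rel difference turned with the scaling, to -0.04 when centred. Neither gene set the cultures apart: 97% of detected genes of a mean level of 9 to 11 differed at least as much as Rela, and 88.2% of those of 7 to 9 at least as much as Rel.

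Neither member of the non-canonical pair reached 1.5-fold. Nfkb2, which encodes the precursor processed in that route, was at 7.36 after anti-CD84 and 6.79 after IgG1 (probe set 17359967), a difference of 0.57, or 1.48-fold higher and just short of 1.5-fold. Of 4542 detected genes with a mean level of 7 to 9, 488 (10.7%) had an upward difference at least as large. Relb, its usual partner, was at 6.25 and 6.37 (probe set 17487325), a difference of -0.12, and 77.2% of the 5057 detected genes of level 5 to 7 differed by as much in either direction. Nfkb2 kept an upward difference under each rescaling (0.44 to 0.48), and in none of them did it reach 1.5-fold.

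The inhibitors that hold NF-kB in the cytosol went in different directions. Nfkbia, the fast feedback inhibitor and a widely used transcript readout of canonical NF-kB activity, was at 8.49 after anti-CD84 and 8.52 after IgG1 (probe set 17281219), a difference of -0.03. Nfkbib, an inhibitor with slower turnover, was at 7.31 and 7.84 (probe set 17488544), a difference of -0.54 or 1.45-fold lower. Downward differences of that size or more occurred in 170 of the 4542 genes of level 7 to 9 (3.74%). Centring, removal of a loess trend and quantile normalization put Nfkbib at -0.62, -0.66 and -0.64, past 1.5-fold in each case.

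Nfkbie, the third cytosolic inhibitor and itself an NF-kB target, was at 5.47 after anti-CD84 and at 4.76 after IgG1 (probe set 17337927), below the detection level in the control culture. The measured difference was 0.71. Counted from the detection level, Nfkbie was at least 1.54-fold higher, a figure that takes the brighter value as free of noise. Of the 5057 detected genes of level 5 to 7, 13.3% were 1.5-fold higher by the values as measured. With values floored at the detection level the Nfkbie difference was 0.63, still past 1.5-fold. Because it counted as detected through the anti-CD84 array alone, Nfkbie drops out when both arrays must lie above the detection level, and then 0 of 8 members were 1.5-fold higher, beside 9.57% of all genes detected on both arrays, and 1 of 8 lower, beside 3.89%.

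Nfkbid had the largest difference of the 9 members. It encodes a nuclear ankyrin protein known for restraining inflammatory genes in macrophages and for roles in lymphocyte development. It was at 5.35 after anti-CD84 and 6.55 after IgG1 (probe set 17476372), so it was detected on both arrays. The difference of -1.20 corresponds to 2.30-fold lower. Among the 5057 detected genes of level 5 to 7, 1.56% were at least 2-fold lower, and 28 (0.554%) were lower by as much as Nfkbid or more. The downward difference was -1.29, -1.26 and -1.28 with centring, loess and quantile normalization. Nfkbiz, the other nuclear ankyrin gene, which cooperates with NF-kB at secondary response genes, was at 7.51 and 7.42 (probe set 17330967), a difference of 0.09. It turned to -0.04 with the loess trend removed.

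**Figure D2:**
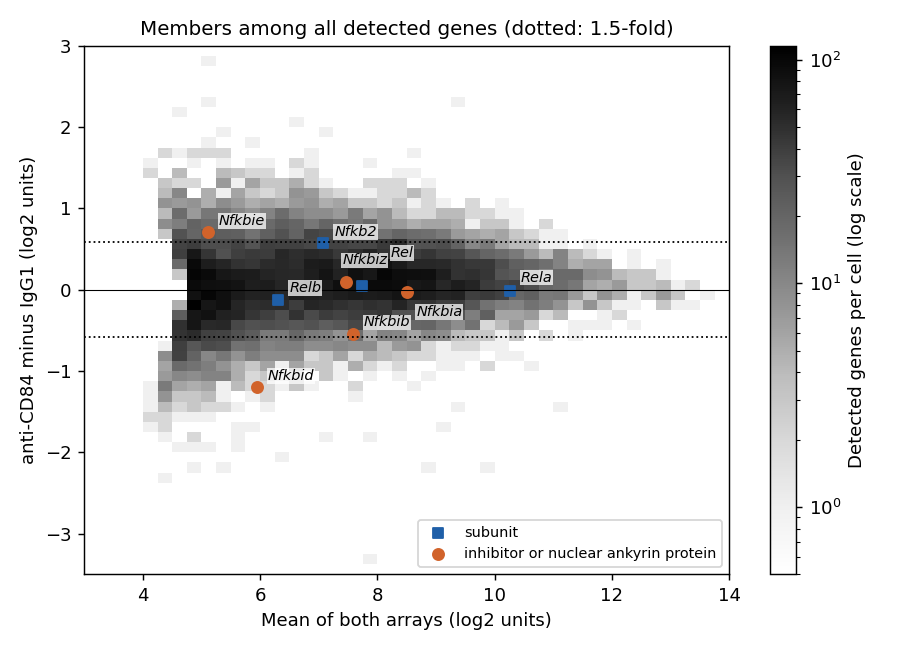
Difference between the arrays (vertical axis, log2) against the mean of both arrays (horizontal axis, log2) for the 9 measured members, over a grey map of the number of detected genes per cell on a log colour scale; dotted lines mark 1.5-fold. Nfkbid (-1.20) lies below the dense part of the cloud at its level, Nfkbie (0.71) and Nfkb2 (0.57) lie near the upper line, and the remaining subunits lie near 0.

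The spread of differences narrowed with level, and the members lie at different levels. The standard deviation was 0.48 for genes of level 5 to 7, where Nfkbid, Nfkbie and Relb lie, 0.37 for 7 to 9, where Nfkb2, Rel, Nfkbia, Nfkbib and Nfkbiz lie, and 0.31 for 9 to 11, where Rela lies. In the level band 5 to 7, 95% of differences were between -0.86 and 1.04, which leaves Nfkbid outside and Nfkbie inside. In the band 7 to 9 the range was -0.63 to 0.86, which holds Nfkb2 and Nfkbib. Nfkbid was the sole member outside the central 95% of its band. No measure of error exists for a single gene here, so these spreads describe the arrays and test nothing.

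Upstream sequences of the members are shown because several members are textbook NF-kB targets. The RefSeq table (GRCm38.p6) held starts for 7 of the 10 members. The 250 bases before each start were searched on both strands for the kappaB consensus GGGRNNYYCC, the GC box GGGCGG and the TATA box TATAAA. In the consensus, R is A or G, Y is C or T and N is any base. The windows of Nfkbie (higher), Nfkbid (lower, the outermost of its 3 starts) and Nfkbia (near equal) are given 5′ to 3′ on the gene's strand, with kappaB matches in capitals. Their positions are chr17:45555450-45555699 on the plus strand, chr7:30421481-30421730 on the plus strand and chr12:55492648-55492897 on the minus strand.
Nfkbie: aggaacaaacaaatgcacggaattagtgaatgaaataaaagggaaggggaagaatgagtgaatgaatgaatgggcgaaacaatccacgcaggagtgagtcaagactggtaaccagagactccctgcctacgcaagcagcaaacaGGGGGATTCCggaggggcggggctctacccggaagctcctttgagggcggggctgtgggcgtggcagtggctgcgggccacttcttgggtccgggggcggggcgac
Nfkbid: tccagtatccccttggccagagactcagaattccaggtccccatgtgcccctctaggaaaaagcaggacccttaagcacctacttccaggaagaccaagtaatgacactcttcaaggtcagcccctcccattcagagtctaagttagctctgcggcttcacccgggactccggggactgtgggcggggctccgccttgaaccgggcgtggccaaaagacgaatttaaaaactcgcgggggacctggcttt
Nfkbia: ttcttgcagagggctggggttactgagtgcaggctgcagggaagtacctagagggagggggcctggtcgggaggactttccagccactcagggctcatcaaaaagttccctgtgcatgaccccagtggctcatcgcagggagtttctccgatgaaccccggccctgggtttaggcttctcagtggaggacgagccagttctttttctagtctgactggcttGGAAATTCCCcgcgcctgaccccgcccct

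The Nfkbie window held 1 kappaB match, 106 bases before the start on the gene's strand, and the Nfkbia window 1 match, 29 bases before the start on the opposite strand. The window of the outermost Nfkbid start held 0 matches, which says only that these letters do not occur there. The second Nfkbid start lies inside the gene and had 2 matches. All 3 Nfkb2 windows overlap Nfkb2 as RefSeq annotates it, and those of the first and second starts also overlap 4833438C02Rik. The Rela window overlaps Rela, and the Nfkbib window overlaps Sirt2. The short stretches around the matches of the remaining members follow, with matches again in capitals. The likeness of the capitals was set by the search, which kept only matches to the consensus.
Rel, chr11:23771042-23771070, minus strand: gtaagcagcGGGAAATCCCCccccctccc
Nfkb2, the first start, chr19:46304689-46304717, plus strand: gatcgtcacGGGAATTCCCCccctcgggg
Nfkb2, the first start, chr19:46304717-46304736, plus strand: gggccgaaaGGGGCTTTCCc
Nfkb2, the second start, chr19:46305450-46305477, plus strand: ccgacggcaGGAATGTCCCcacaaaagc
Nfkb2, the third start, chr19:46305696-46305723, plus strand: ggtattttcGGGACTTTCCtaagcagca
Nfkbid, the second start, chr7:30422171-30422198, plus strand: ccccgccctGGGACTTCCCagagcacca
Nfkbid, the second start, chr7:30422216-30422243, plus strand: ggccgaacaGGAATTCCCCgtgcgcggg

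Of 11 windows of 7 members, 7 windows of 5 members (Rel, Nfkb2, Nfkbia, Nfkbie and Nfkbid) held a kappaB match, compared with 7.25% of all 32851 windows in the table. The runs of 11 capitals in Rel and in the first Nfkb2 window are 2 overlapping matches each, so they are counted as 1 stretch. The windows of Rela and Nfkbib held 0 matches. The GC box occurred in 8 of the 11 windows and in 32.7% of all windows, and the TATA box in 0 of 11 and 12.4%. The members' windows had a GC content of 54.8% to 77.6%, above the mean of 53.2% over all windows, and its part in the number of matches was not tested. Matches are descriptions of letters and show no binding. Members with a match had differences from -1.20 (Nfkbid) to 0.71 (Nfkbie), and Rela and Nfkbib without one had -0.01 and -0.54.

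**Figure D3:**
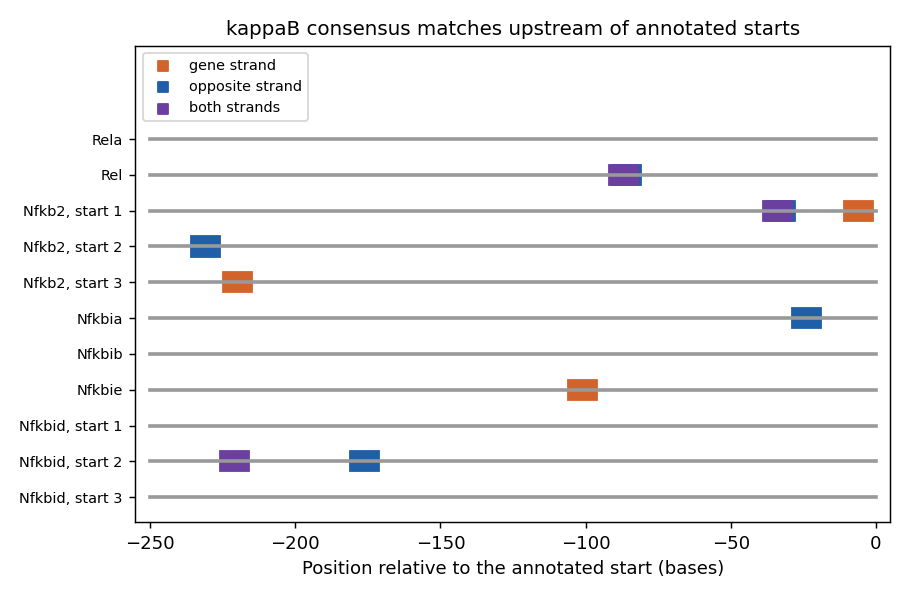
Positions of kappaB consensus matches (boxes, 10 bases each) in the 250 bases before each annotated start of 7 members, with the horizontal axis in bases relative to the start; colours give the strand that matches. Nfkb2 has matches before each of its 3 starts, and Rela, Nfkbib and 2 of 3 Nfkbid starts have none.

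The other genes of the pathway were taken from 9 lists that hold 173 genes, of which 137 were detected. Of these, 12 (8.76%) were at least 1.5-fold higher after anti-CD84 and 17 (12.4%) at least 1.5-fold lower, beside 10.7% and 6.4% of all detected genes. These counts use the values as measured, also where 1 array lies under the detection level. With values floored there, 9 were higher and 12 lower of the 137, beside 9.15% and 4.13% of all detected genes. Among the 119 pathway genes detected on both arrays, 8 (6.72%) were higher and 10 (8.4%) lower, beside 9.57% and 3.89%. The lists were drawn up with earlier results for several of their genes known, among them Birc2, Ccl2, Lta, Psmb9 and Cxcl12, so these shares are not independent evidence of a direction. The median pathway difference was 0.05, below the 0.09 of all detected genes.

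Among receptors that feed into NF-kB, 1 of 17 detected genes (5.88%) was 1.5-fold higher and 0 were lower, beside 10.7% and 6.4% of all detected genes. Tnfrsf1a, the main signalling receptor for TNF, was at 9.68 after anti-CD84 and 9.06 after IgG1, 1.54-fold higher. But with centring 0 receptors were higher and 2 were lower, beside 7.71% and 8.49% of all detected genes. The cytosolic sensor Nod2 was at 4.61 and 5.17, and its other probe set went the opposite way (5.05 and 4.66). Ltbr, a receptor that starts the non-canonical route and was looked up after its value was seen, was at 8.29 and 8.80, 1.43-fold lower.

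Adaptors and ubiquitin ligases had 2 of 21 members 1.5-fold higher (9.52%) and 3 lower (14.3%), beside 10.7% and 6.4% of all detected genes, with a median of 0.02. With values floored at the detection level 2 were lower, beside 4.13% of all detected genes. Sharpin, a subunit of the linear ubiquitin ligase, was at 9.17 and 8.37, 1.74-fold higher. Traf6, the ubiquitin ligase downstream of interleukin and Toll-like receptors, was at 7.20 and 6.58, 1.54-fold higher. Birc2, a ubiquitin ligase that keeps the non-canonical kinase Map3k14 low, was at 6.60 and 7.42, 1.76-fold lower. Ticam2, a Toll-like receptor adaptor, was at 3.78 against 4.92, at least 1.06-fold lower and not detected after anti-CD84. With centring, 1 adaptor in place of 2 was higher, beside 7.71% of all detected genes.

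Kinases had 2 of 15 detected members 1.5-fold higher (13.3%) and 1 lower (6.67%), near the 10.7% and 6.4% of all detected genes, with a median of 0.19. Rps6ka5, a kinase that phosphorylates Rela and histones, was at 6.31 and 5.54, 1.70-fold higher. Map3k8, a kinase of the MAP kinase route that binds the Nfkb1 product, was at 6.40 and 5.79, 1.53-fold higher. Tab1, a partner of the kinase Map3k7, was at 7.42 and 8.06, 1.56-fold lower. The kinase that phosphorylates the inhibitors, Ikbkb, was at 8.50 and 8.18, and Map3k14, the kinase that starts the non-canonical route, at 6.33 and 6.24. The scaffold of the kinase complex, Ikbkg, differed by -0.05. These last 3 were named for their place in the pathway after their values were seen. With centring 1 kinase was higher, beside 7.71% of all detected genes.

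Negative regulators had 0 of 20 members 1.5-fold higher and 3 lower (15%), beside 10.7% and 6.4% of all detected genes, with a median of 0.10. Otulin, which removes linear ubiquitin chains, was at 6.46 and 7.18, 1.65-fold lower. Tollip, an inhibitor of Toll-like receptor signalling, was at 7.18 and 7.81, 1.55-fold lower, and Pdlim2, which promotes the degradation of nuclear Rela, at 7.35 and 7.97, 1.53-fold lower. Tnfaip3 (6.87 and 7.29) and Cyld (7.46 and 7.18), deubiquitinases looked up after their values were seen, stayed within 1.5-fold. All 4 detected genes of the other ankyrin and inhibitor family list lay within 1.5-fold. Nfkbil1 was at 5.83 and 6.25, with its other probe set also lower (5.03 and 5.22), the repressor Nkrf was at 6.54 and 6.90, and Bcl3, a nuclear ankyrin relative of Nfkbid, looked up afterwards, at 5.10 and 5.30.

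Coactivators and nuclear partners had 0 of 17 members 1.5-fold higher and 1 lower (5.88%), beside 10.7% and 6.4%. Kat5, a histone acetyltransferase, was at 7.46 and 8.21, 1.68-fold lower, and Kat2b, another acetyltransferase, was at 7.99 and 7.45, short of 1.5-fold.

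Of 16 detected chemokine and cytokine targets 3 were 1.5-fold higher and 5 lower by the values as measured, beside 10.7% and 6.4% of all detected genes. Of these 8, 5 were undetected on 1 array. With values floored at the detection level 1 was higher and 3 lower, beside 9.15% and 4.13% of all detected genes. Cx3cl1, a membrane-bound chemokine, was at 8.16 and 7.01, 2.21-fold higher. Il15, a lymphocyte survival cytokine, was at 5.39 against 3.95, at least 1.47-fold higher. Lta, which encodes lymphotoxin alpha, was at 4.01 against 5.81, at least 1.96-fold lower. Csf2, which encodes a granulocyte-macrophage growth factor, was at 4.02 against 5.19, at least 1.27-fold lower, with its other probe set undetected on both arrays (4.33 and 4.37). Il6 (3.92 and 4.17) and Il1b (3.88 and 3.99), common readouts of NF-kB that were looked up afterwards, were undetected on both arrays. Of the 9 targets detected on both arrays 1 was higher and 2 lower, beside 9.57% and 3.89% of all genes detected on both arrays. The 2 lower were Ccl2 (5.46 and 6.20, 1.68-fold) and Ccl7 (7.39 and 8.02, 1.54-fold), also looked up afterwards.

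Among 23 detected adhesion, enzyme and survival targets 3 were 1.5-fold higher (13%) and 2 lower (8.7%) by the values as measured, beside 10.7% and 6.4%. With values floored at the detection level 2 were higher and 1 lower, beside 9.15% and 4.13% of all detected genes. Of the 19 detected on both arrays 1 was higher and 1 lower, beside 9.57% and 3.89% of all genes detected on both arrays. Mmp13, a collagenase, was at 6.38 and 4.07, at least 2.91-fold higher, and the prostaglandin synthase Ptges was at 7.29 and 5.96, 2.52-fold higher. Bcl2a1a, a survival gene of a family with near-identical copies whose probes can share signal, was at 4.91 and 3.81, at least 1.05-fold higher. Psmb9, an immunoproteasome subunit, was at 5.94 and 6.75, 1.75-fold lower. The adhesion gene Vcam1 (8.14 and 8.13) and the cyclooxygenase Ptgs2 (11.34 and 11.06), looked up afterwards as common NF-kB readouts, stayed within 1.5-fold. Icam1 (4.84 and 4.79), another adhesion gene looked up afterwards, lay at the detection level after anti-CD84 and below it after IgG1. Its difference therefore has no measured size.

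Of 4 detected targets of the non-canonical route 1 was 1.5-fold higher and 2 lower by the values as measured, beside 10.7% and 6.4% of all detected genes. Flooring at the detection level left 1 lower, beside 4.13% of all detected genes. Of the 2 genes detected on both arrays 0 were lower, beside 3.89% of all genes detected on both arrays. Cxcl12, the chemokine that retains blood cells in marrow, was at 10.29 and 9.19, 2.15-fold higher. Cxcl13, a B cell chemokine, was at 4.73 against 5.50, at least 1.58-fold lower, and Tnfsf13b, a B cell survival factor, at 4.52 against 5.35, at least 1.43-fold lower. Neither lower gene was detected after anti-CD84. The 4 genes did not share a direction.

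**Figure D4:**
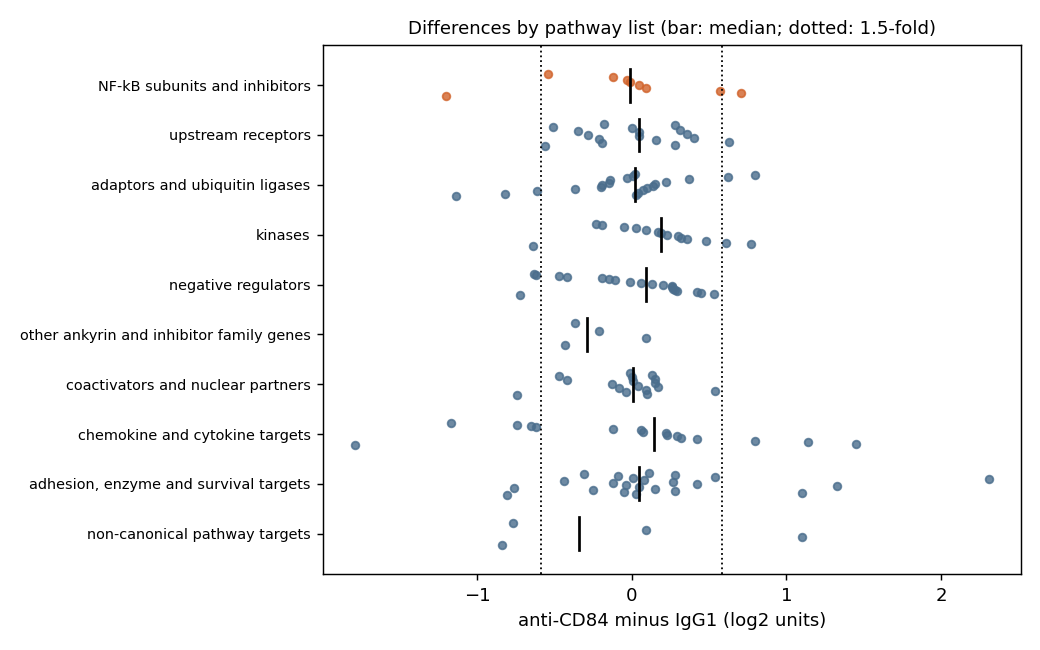
Difference between the arrays (horizontal axis, log2) for each detected gene of the members and of the 9 pathway lists (vertical axis), with the median of each as a bar and 1.5-fold as dotted lines; vertical scatter within a list carries no value. Of the 9 members 7 lie between the dotted lines. Several points outside them, Lta, Il15, Csf2 and Mmp13 among them, have 1 array under the detection level, so their distance from 0 has no measured size.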

How the data were processed

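RNA from 2 M210B4 cultures (200000 cells each, 200 ng of labelled RNA) was measured on 1 array per group. The deposited log2 values, 1 per probe set and array, were made by the authors with RMA and Partek, per the submitters' processing notes. The log2 scale was read from the values. For versions, settings and annotation build: not given in the sources used here. RMA compresses differences of dim probe sets, so low genes can be understated. They can also be overstated, since differences spread more at low level. Their standard deviation was 0.62 for detected genes of level under 5 and 0.31 for 9 to 11.

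Gene symbols came from the platform annotation in GEO: 23521 of 41345 have 1 symbol, 1814 several and 16010 none listed. The brightest 1-symbol probe set stood for a gene. Folds with 1 array below the detection level (4.84) were counted from it. The members and gene lists were chosen with earlier results of these data known. Named genes were the 9 measured members, Cd84, and from each list up to 4 detected genes past 1.5-fold by size, or the 2 largest where fewer than 2 passed. Named outside that rule, after their values were seen, were Ltbr, Ikbkb, Ikbkg, Map3k14, Tnfaip3, Cyld and Bcl3. Also named in that way were Ccl2, Ccl7, Il6, Il1b, Vcam1, Icam1, Ptgs2 and the marker genes given in the text.

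Alternatives were centring, loess (limma 3.58.1, span 0.4), quantile normalization, a stricter level (6.88, the upper quartile of the values), no filter on level, detection on both arrays, the mean of a gene's probe sets, flooring at the detection level and, added after seeing the data, a 1.4-fold threshold. Protein identity between members was not computed here. A check on simulated data with large planted differences and little noise covered the 1.5-fold threshold and the motif search. It does not measure how reliable the calls in these data are. Computations used R 4.3.3 and Python 3.11.15 with pandas 2.3.3, numpy 2.4.6 and matplotlib 3.10.9.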

Additional observations from a re-analysis of the deposited data

How the results depend on the processing

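The counts of members past 1.5-fold, 1 higher and 1 lower, moved with several choices. Members lower became 2 with centring, loess and quantile normalization alike, through Nfkbib. The stricter level kept 6 members and left 0 higher and 0 lower, since Nfkbid and Nfkbie lie below it, and requiring both arrays above the detection level left 0 higher. The 1.4-fold threshold gave 2 higher and 2 lower of 9, beside 15.5% and 8.9% of all detected genes. The members' median of -0.01 became -0.12 with loess and lay between -0.10 and 0.02 under the other alternatives. The pathway lists, 12 higher and 17 lower, gave 6 and 7 of 83 genes at the stricter level. They gave 10 lower with both arrays above the detection level, where fewer genes are counted, and 9 and 12 with values floored. The share of all genes past 1.5-fold at the stricter level was not computed, so the member and pathway counts there have no background. In either direction, 21% of detected genes of level 5 to 7 passed 1.5-fold, beside 12.7% at 7 to 9. Nfkbid and Nfkbie kept their direction and stayed past 1.5-fold with centring, loess and quantile normalization, the alternatives that rescaled both genes. Several other alternatives could not move them. Dropping the level filter changes no value, and the mean of probe sets changes none where a gene has 1 probe set. Flooring could not move Nfkbid, which lies above the detection level on both arrays, and it lowered the Nfkbie difference to 0.63. Allowing 1 mismatch in the kappaB consensus raised the share of all windows with a match from 7.25% to 56.6%, and all 11 member windows then matched. No paired analysis was possible because each group has 1 array, and for the same reason no replicate could be left out. Depth has no meaning for these arrays, and signal near the detection level limits Nfkbie most.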
